A study of Mus musculus with 57 samples.

Results

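The nuclear genes for the subunits of respiratory complexes II to V are described here in 57 RNA libraries from the mouse brain. Members were the genes whose symbol names a succinate dehydrogenase subunit, a complex III subunit, a cytochrome c oxidase subunit or an ATP synthase subunit, with a normalised read count of 35 or more in at least 3 libraries. Of 49 symbols that match, 46 met this level, among 45337 genes in the table: 4 of complex II, 9 of complex III, 16 of complex IV and 17 of complex V. Cox6c2, Cox8b and Cox8c did not, and 6 symbols of pseudogenes were left out. The choice used the level over all libraries and no difference between groups. Atp5s and Cox7a2l match by name, although the first encodes an ATP synthase coupling factor and the second is best known as a factor of respiratory supercomplexes.

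The libraries were made from corticospinal neurons (CSN), the cortical output neurons that reach the spinal cord, and from cells labelled as control cells, whose identity the labels do not describe further. Both came from mice labelled Sod1G86R, which carry a mutant Sod1 transgene used as a model of amyotrophic lateral sclerosis, and from wild-type mice. Ages were 30, 60, 90 and 105, read here as days. CSN of Sod1G86R mice gave 3, 4, 4 and 2 libraries at these ages, and CSN of wild-type mice 4 at each. Control cells of Sod1G86R mice gave 3, 3, 4 and 4 libraries, and control cells of wild-type mice 4, 2, 4 and 4. The promoter of the transgene, the sex of the mice and the way the cells were collected are not given in the sources used here, and whether a library holds cells of 1 mouse is not stated. If libraries of a group are not from separate mice, p-values measure only the spread between these libraries.

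The respiratory chain passes electrons to oxygen and stores the energy as a proton gradient across the inner mitochondrial membrane. Complex II, succinate dehydrogenase, is also an enzyme of the citric acid cycle and is the only complex of the chain that is encoded in the nucleus alone. Complex III moves electrons from ubiquinol to cytochrome c, complex IV moves them from cytochrome c to oxygen, and complex V is the ATP synthase that uses the gradient. Complexes III, IV and V also hold subunits made from mitochondrial DNA. Neurons with long axons depend on this chain, and mitochondrial changes are a known feature of Sod1 mutant mice.

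Libraries held 22.2 to 64.2 M recovered reads. Cox4i2, Cox6a2, Cox6b2 and Cox7b2 averaged 5.47 to 19.2 in CSN, where depth limits their precision. Sod1 was 80215.6 to 172179.1 in CSN of Sod1G86R mice and 1806.4 to 4562.1 in CSN of wild-type mice, so every CSN library matched its genotype label, and it was 38566.7 to 155479.5 in Sod1G86R control cells and 1610.6 to 4244.2 in wild-type control cells. Corticospinal markers summed to a mean of 96585 in CSN of Sod1G86R mice and 85443 in wild-type CSN, against 9568 and 7595 in the control cells of the same genotypes. Control cells held summed oligodendrocyte markers of 157680 to 1378100 in Sod1G86R mice and 119250 to 2204100 in wild-type mice, so they hold glial RNA. They hold neuronal RNA too. Markers of upper-layer neurons summed to means of 38485 in Sod1G86R and 34982 in wild-type control cells, against 1843.5 and 1821 in CSN. Markers of glutamatergic neurons summed to means of 23793 and 21839 in these control cells, against 34024 and 35140 in CSN. CSN also held glial markers, with summed oligodendrocyte levels of 8088 to 105330 in Sod1G86R mice and 4128 to 311410 in wild-type mice. Mitochondrially encoded RNA took 3.26 to 10.6% of the values in CSN of Sod1G86R mice and 5.68 to 18.1% in wild-type CSN, a lower share in Sod1G86R (adjusted p = 0.0047, two-sided permutation test within ages, 100000 permutations, 10 tests). Sod1G86R CSN libraries were also deeper, with 40.7 ± 10.3 M reads (SD, n = 13) against 32.3 ± 6.88 in wild type (SD, n = 16), adjusted p = 0.0152 in the same permutation test. In control cells depth differed the other way. Sod1G86R libraries held 34.2 ± 7.93 M reads and wild-type libraries 42.2 ± 8.14 (SD, n = 14 each), adjusted p = 0.0347 in that permutation test.

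The promoters of 34 of the 46 members were at hand, as 300 bases from 250 before to 50 after a start site in RefSeq (GRCm38.p6). NRF1 is a known activator of respiratory genes, and GABPA, an ETS factor, is another. The NRF1 motif, searched on both strands as GCGCA and GCGC with any single base between them, was present in 10 of the 34, or 29.4%, against 5.19% of 27025 genes with a promoter entry. CCGGAAG, the ETS motif, was present in 12 of 34, or 35.3%, against 9.93% of all genes. TCAAGGTCA, an ERR motif, was found in 2 members, AAGATGGCG, a YY1 motif, in 2, and TGACGTCA, the cAMP response element, in 1. No 2 of these motifs overlapped in any of the 37 promoter entries of members. Of the members with a promoter that rose in Sod1G86R CSN, as described further on, 6 of 14 held the NRF1 motif and 2 of 14 the ETS motif. Of those that did not pass the test, 4 of 18 held the NRF1 motif and 10 of 18 the ETS motif. These are counts of letters in a window, and they say nothing of binding. The promoters of 4 genes are shown because they hold the motifs counted: 3 that rose and Uqcrh, a complex III gene that did not pass, with every motif match in capitals. They lie at chr13:74350191-74350490 (minus strand) for Sdha, chr9:50603800-50604099 (minus) for Sdhd, chr9:108936398-108936697 (plus) for Uqcrc1 and chr4:116075021-116075320 (minus) for Uqcrh.
Sdha: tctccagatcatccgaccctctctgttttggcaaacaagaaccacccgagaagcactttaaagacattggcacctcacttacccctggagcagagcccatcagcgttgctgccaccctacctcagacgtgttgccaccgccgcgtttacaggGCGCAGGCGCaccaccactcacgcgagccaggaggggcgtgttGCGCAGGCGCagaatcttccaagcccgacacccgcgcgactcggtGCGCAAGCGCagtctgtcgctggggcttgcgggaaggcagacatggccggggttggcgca
Sdhd: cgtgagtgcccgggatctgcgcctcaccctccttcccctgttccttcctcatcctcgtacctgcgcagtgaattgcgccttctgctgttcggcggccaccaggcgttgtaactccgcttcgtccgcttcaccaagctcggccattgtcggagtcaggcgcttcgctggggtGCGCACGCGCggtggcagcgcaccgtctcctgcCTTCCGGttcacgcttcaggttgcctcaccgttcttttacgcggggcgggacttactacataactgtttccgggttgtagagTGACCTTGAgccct
Uqcrc1: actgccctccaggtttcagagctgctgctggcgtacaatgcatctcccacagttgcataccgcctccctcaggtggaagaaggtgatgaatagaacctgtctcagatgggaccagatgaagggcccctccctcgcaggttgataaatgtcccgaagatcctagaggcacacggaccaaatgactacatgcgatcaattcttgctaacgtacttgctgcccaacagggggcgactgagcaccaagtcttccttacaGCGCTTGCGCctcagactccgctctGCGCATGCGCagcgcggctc
Uqcrh: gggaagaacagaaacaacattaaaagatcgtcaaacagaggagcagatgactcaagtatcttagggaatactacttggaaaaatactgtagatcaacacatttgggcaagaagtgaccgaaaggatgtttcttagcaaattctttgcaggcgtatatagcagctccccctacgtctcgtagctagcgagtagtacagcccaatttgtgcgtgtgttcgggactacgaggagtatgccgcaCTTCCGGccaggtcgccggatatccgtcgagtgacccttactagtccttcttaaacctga
Sdha carries the NRF1 motif at 3 places and Uqcrc1 at 2, both after its start site. Sdhd carries an NRF1, an ETS and an ERR motif, and Uqcrh an ETS motif alone.

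In CSN, the members were higher in Sod1G86R mice where they moved at all. Averaged over the 4 ages, 20 of the 42 members that passed the filter on low values rose in Sod1G86R CSN relative to wild-type CSN and 0 fell (limma on log2(value + 34.6), Benjamini-Hochberg adjusted p under 0.05 over all genes). Over all genes, 12.8% of 19093 were called higher and 6.31% lower. The filter asked for 34.6, or 1 ppm of a median library, in at least 3 libraries, and Cox4i2, Cox6a2, Cox6b2 and Cox7b2 did not reach it in CSN. The median log2 fold change of the members was 0.35, against -0.05 for all genes. It was 0.094 with quantile normalisation, with 17 members called, and 0.10 with the mitochondrial share in the fit, against -0.02 and -0.0021 for all genes. Quantile normalisation called 2670 of 19093 genes. By complex, 4 of 4 members of complex II rose, 4 of 9 of complex III, 3 of 12 of complex IV and 9 of 17 of complex V. The median log2 fold changes were 0.70, 0.33, 0.21 and 0.43 in the same order. In bulk samples of this kind, a different number of cells of a type and a different amount of RNA per cell cannot be told apart.

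**Figure D1:**
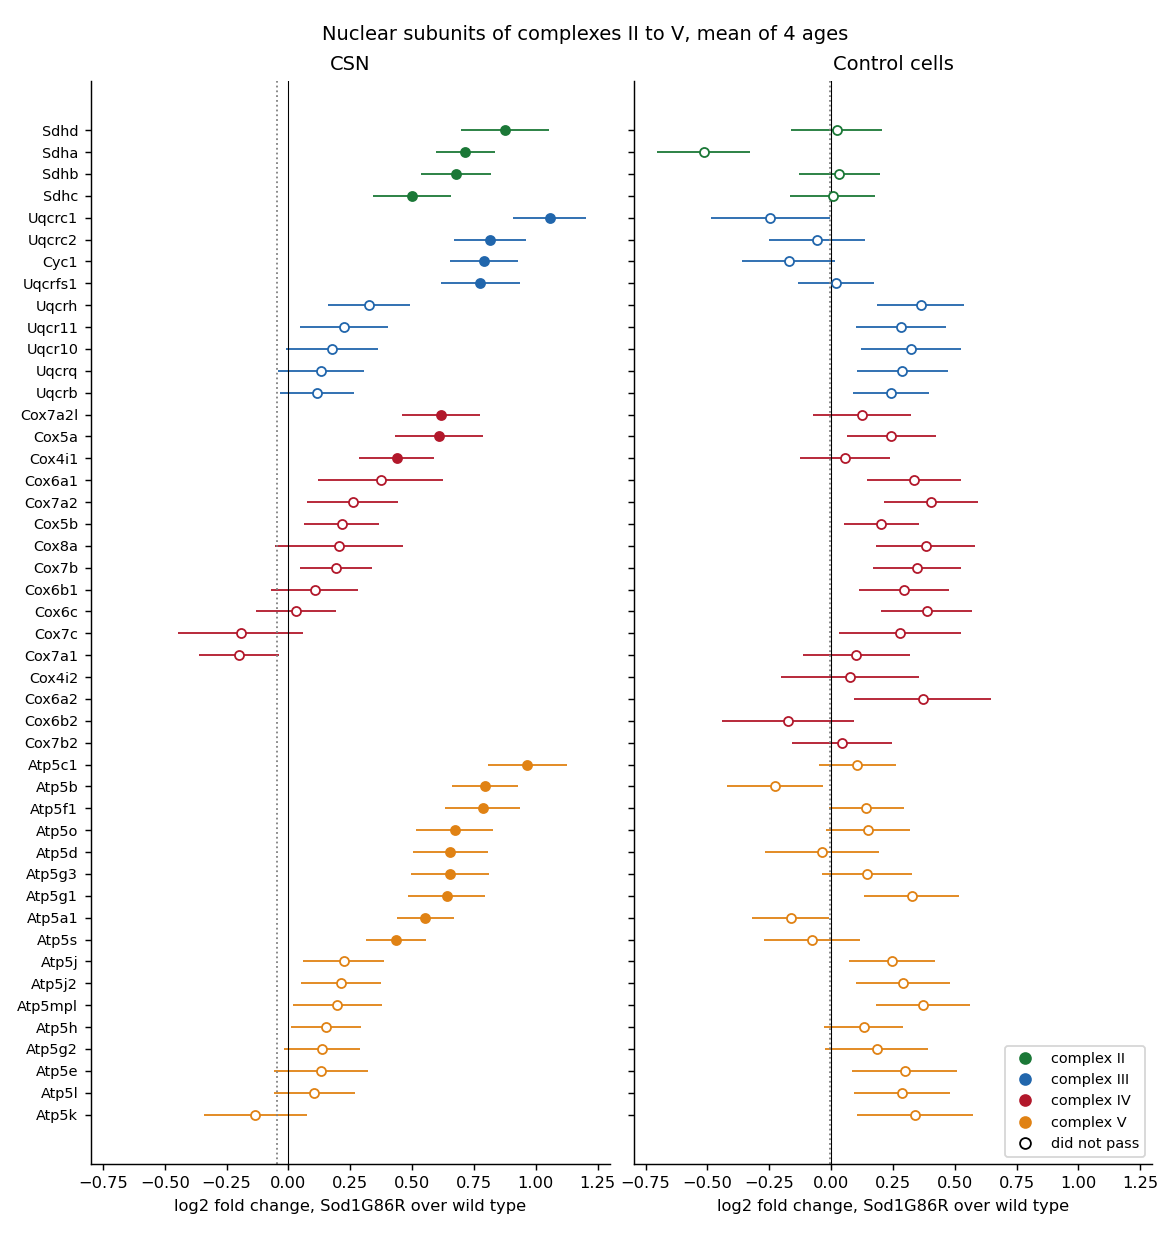
Log2 fold change of each member, Sod1G86R over wild type, as the mean of 4 ages with its standard error, in CSN (left) and control cells (right); filled points passed adjusted p under 0.05, open points did not, and the dotted line is the median of all genes. In CSN 20 members are filled and all lie right of 0, while in control cells 0 are filled.

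Complex II was the complex whose measured subunits all passed. Sdha, the flavoprotein that oxidises succinate (chromosome 13, 74322254 to 74350280, GRCm38), was 6864 to 20966 with a median of 13750 in the 13 Sod1G86R CSN libraries, against 5129 to 10352 with a median of 8572 in the 16 wild-type CSN libraries. At 90 days Sdha was 13268, 15342, 18780 and 20966 in Sod1G86R CSN, against 7586, 8501, 8751 and 9069 in wild-type CSN. The groups did not overlap at 90 days, and over all ages 11 of 13 Sod1G86R libraries were above the highest wild-type library. The 2 others were 60-day libraries, at 6864 and 7562. The log2 fold change of Sdha was 0.72 ± 0.12 (SE), adjusted p = 0.000319 with limma. Sdhd (chromosome 9, 50596357 to 50603812), a membrane anchor of the complex, rose most among the 4, by 0.88 ± 0.18 on the log2 scale (limma, adjusted p = 0.00143). It was 4053 to 16582 with a median of 9184 in CSN of Sod1G86R mice and 2872 to 8490 with a median of 5092 in wild-type CSN, so the groups overlapped, with 8 of 13 Sod1G86R libraries above every wild-type library. Sdhb, the iron-sulfur subunit, rose by 0.68 ± 0.14 and Sdhc, the other anchor, by 0.50 ± 0.16 (limma, adjusted p = 0.0016 and 0.0275).

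In complex III the subunits split into 2 sets. The catalytic subunits and the core proteins rose: Uqcrc1 and Uqcrc2, the core proteins, Cyc1, the cytochrome c1 haem protein, and Uqcrfs1, the Rieske iron-sulfur protein. Uqcrc1 (chromosome 9, 108936633 to 108949623) had the highest fold change of all members, 1.06 ± 0.15 on the log2 scale (limma, adjusted p = 8.66e-05). It was 19164 to 57900 with a median of 43258 in CSN of Sod1G86R mice and 12471 to 30629 with a median of 20167 in wild-type CSN. At 90 days Uqcrc1 was 28235, 46605, 46767 and 54766 in Sod1G86R CSN, against 12471, 12642, 22262 and 24504 in wild-type CSN. Every Sod1G86R library of that age was above every wild-type library. Cyc1 rose by 0.79 ± 0.14 (limma, adjusted p = 0.000351), with a median of 13738 in CSN of Sod1G86R mice and 7656 in wild-type CSN. Uqcrc2 and Uqcrfs1 were higher by 0.82 and 0.78. Of the small accessory subunits Uqcrh, Uqcr11, Uqcr10, Uqcrq and Uqcrb, 0 of 5 passed, and their log2 fold changes ran from 0.12 to 0.33. Uqcrh, the hinge protein that binds cytochrome c1, was 5319 to 9775 in CSN of Sod1G86R mice and 2870 to 10443 in wild-type CSN, so the Sod1G86R range lay within the wild-type range.

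**Figure D2:**
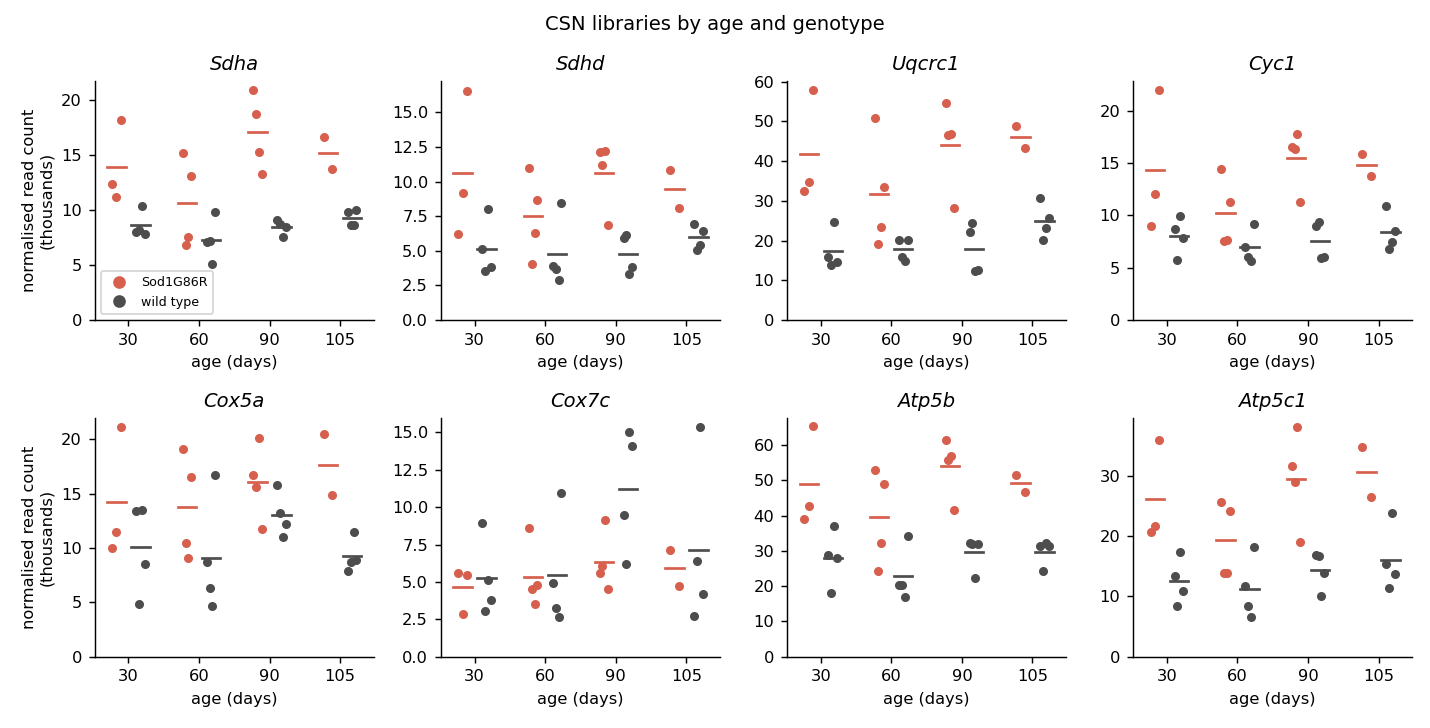
Normalised read count, in k (kilo), of 8 members in each CSN library by age in days, Sod1G86R at the left and wild type at the right of each age; points are libraries and bars are means. Sdha, Uqcrc1, Cyc1, Atp5b and Atp5c1 are above every wild-type library at 90 days in all 4 Sod1G86R libraries, while Cox7c overlaps at every age. Apart from Cox7c, the members shown were chosen by small p in these same libraries. The share of all genes that separate in this way was not counted, and 24.2% of all genes had an unadjusted limma p under 0.05 at 90 days.

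Complex IV had the smallest share of members that rose. Cox7a2l rose by 0.62 ± 0.16, Cox5a, a subunit on the matrix side of the enzyme, by 0.61 ± 0.18, and Cox4i1, the subunit on which ATP inhibits the enzyme, by 0.44 ± 0.15 (log2, limma, adjusted p = 0.00715, 0.0163 and 0.0421). Cox5a was 9112 to 21174 with a median of 15601.5 in CSN of Sod1G86R mice and 4679 to 16713 with a median of 9965 in wild-type CSN. The other 9 tested members did not pass, with log2 fold changes from -0.20 for Cox7a1 to 0.37 for Cox6a1. Cox7c, a small structural subunit, was 2864 to 9163 in CSN of Sod1G86R mice and 2655 to 15342 in wild-type CSN, with a log2 fold change of -0.19 ± 0.25. None of the catalytic subunits of complex IV is encoded in the nucleus, so this list holds its structural and regulatory subunits only.

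In complex V the members that rose included 4 of the 5 subunits of the catalytic head and its central stalk. Atp5a1 (alpha), Atp5b (beta), Atp5c1 (gamma) and Atp5d (delta) rose by 0.55, 0.80, 0.97 and 0.65 on the log2 scale, while Atp5e (epsilon), the smallest, stood at 0.13 ± 0.19 and did not pass. Atp5c1 (chromosome 2, 10056016 to 10080510) was 13919 to 38051 with a median of 25705 in CSN of Sod1G86R mice and 6676 to 23761 with a median of 13615 in wild-type CSN (limma, adjusted p = 0.000314). All 13 Sod1G86R libraries were above the wild-type mean and 8 were above the highest wild-type library. Atp5b was 24199 to 65313 with a median of 49049 in CSN of Sod1G86R mice and 16997 to 36916 with a median of 30099 in wild-type CSN (limma, adjusted p = 0.000323). Of the peripheral stalk, Atp5f1 (b) and Atp5o (OSCP) rose by 0.79 and 0.67, whereas Atp5h (d) and Atp5j (F6) stood at 0.15 and 0.22 and did not pass. Of the 3 genes for the same proton-carrying c subunit, Atp5g1 and Atp5g3 rose, by 0.64 and 0.65, and Atp5g2, the lowest, stood at 0.14 ± 0.15. The small membrane subunits Atp5j2, Atp5k, Atp5l and Atp5mpl had log2 fold changes from -0.13 to 0.21 and did not pass, and the coupling factor gene Atp5s rose by 0.43.

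The fold changes followed the length of the coding sequence. The 20 members that rose had coding lengths of 333 to 1992 bases with a median of 703.5, and the 22 that did not pass had 156 to 483 with a median of 247.5. All 10 members of 700 bases and over rose, as did 9 of 12 from 350 up to 700 and 1 of 20 under 350, with median log2 fold changes of 0.79, 0.55 and 0.18. Other tested genes of these lengths were called higher in 13.9%, 27.3% and 14.8% of cases, with medians of -0.01, 0.17 and 0.08, so the order by length seen among the members was not the order over other genes. Across the 42 members, Spearman's rho between log2 fold change and coding length was 0.80, and across 14633 coding genes it was -0.26. These are descriptions across genes, which share libraries and are not independent. In control cells the relation among members had the opposite sign for the mean of ages, with rho -0.76 for 46 members and 0.06 for 16064 coding genes. By age, rho of the members in control cells was -0.39, -0.78, 0.28 and 0.36 at 30, 60, 90 and 105 days. The opposite sign thus held at 30 and 60 days only, and the 60-day comparison has 2 wild-type libraries. The part of length in the differences between complexes was not tested beyond 1 alternative. With the trend of each library on transcript length removed, 22 members were called higher in CSN. Over all genes, that fit called 3311 of 14633 in either direction. Because the trend was on transcript length, the fit does not test the relation with coding length described above.

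**Figure D3:**
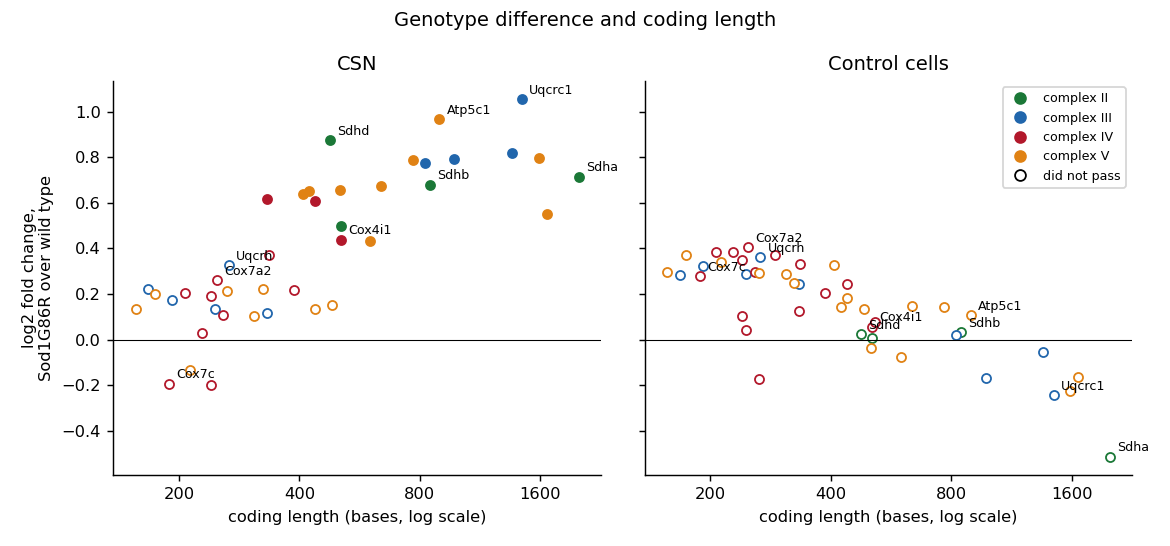
Log2 fold change of each member, Sod1G86R over wild type, mean of ages, against its coding length in bases on a log axis, in CSN and in control cells, coloured by complex and filled where the member passed. In CSN all 10 members of 700 bases and over are filled and lie at 0.55 to 1.06, and 1 of 20 under 350 bases is filled.

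The calls in CSN were not kept with the mitochondrial share of the library in the fit. When the log2 share of mitochondrially encoded RNA was added to the fit, 0 of 42 members passed, and over all genes 25 of 19093 were called. The share itself was lower in Sod1G86R CSN, at means of 5.95% and 9.41% in Sod1G86R and wild type. This fit therefore cannot tell a genotype difference from a difference that goes with the share. With the glial marker level in the fit 21 rose, and with the number of detected genes 16 did. Over all genes, 2550 and 1582 of 19093 were called in these 2 fits. The glial marker level of the libraries averaged 9.37 in CSN of Sod1G86R mice and 10.01 in CSN of wild-type mice (mean log2 values), and the difference of -0.67 did not pass (adjusted p = 0.07596, permutation test within ages). By list, 2 of 9 microglial and 2 of 5 oligodendrocyte precursor markers fell, at median log2 fold changes of -0.98 and -0.72, while 0 of 8 oligodendrocyte and 0 of 8 astrocyte markers passed, at -0.84 and -0.20. Of the endothelial and mural markers 1 of 6 fell, at a median of -0.57. Of the corticospinal markers, 4 of 8 rose, with a median of 0.27. Over all genes, 12.8% were called higher and 6.31% lower. Bcl11b averaged 9154 in Sod1G86R and 10678 in wild-type CSN, and Fezf2 7204 and 7569. The other corticospinal markers averaged higher in Sod1G86R CSN. Their sum over the list did not pass (adjusted p = 0.0559, permutation test within ages). The part of depth, mitochondrial share and glial RNA in the difference was not tested.

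By age, members passed at 90 days alone, where 8 of 42 rose and 0 fell in Sod1G86R CSN, against 3.48% of all genes called higher and 1.38% lower. They were Uqcrc1 (1.32 ± 0.27), Sdhd (1.15), Cyc1 (1.04), Uqcrc2 (1.02), Atp5c1 (1.02), Sdha (0.99), Atp5b (0.87) and Atp5s (0.77), as log2 fold changes with limma, adjusted p 0.0231 to 0.0437. At 30, 60 and 105 days limma called 0 of 42 members, against 0.0157%, 0.0314% and 0.021% of all genes in either direction. At these ages 18, 14 and 15 members had an unadjusted p under 0.05, all of them higher in Sod1G86R. Over all genes, 13.5%, 7.86% and 8.02% had such a p in either direction. Median log2 fold changes of the members were 0.41, 0.42, 0.05 and 0.52 at 30, 60, 90 and 105 days. The 90-day libraries thus held the calls and also the lowest median, with a range from -0.95 for Atp5k to 1.32 for Uqcrc1. At 105 days all 42 members stood above 0, with 2 Sod1G86R libraries. Complex IV had medians of 0.27, 0.35, -0.13 and 0.38 at the 4 ages, and complex II 0.74, 0.46, 0.88 and 0.71. The change of the genotype difference from 30 to 105 days passed for 0 of 42 members with limma, edgeR or DESeq2. Limma called 0% of all genes. An unadjusted limma p under 0.05 was reached by 0 members and by 2.01% of all genes. An age effect in wild-type CSN, 105 against 30 days, was called for 0 of 42 with each of limma, edgeR and DESeq2. Limma again called 0% of all genes. Here 1 member (Uqcrc2, log2 fold change 0.58 ± 0.27) and 6.22% of all genes had an unadjusted limma p under 0.05.

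**Figure D4:**
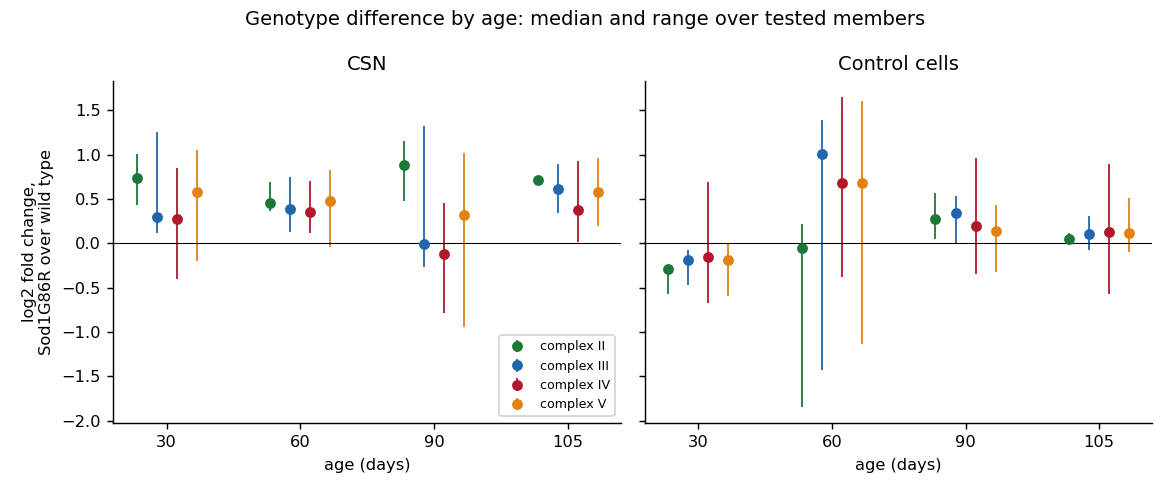
Median and full range over tested members of the log2 fold change, Sod1G86R over wild type, at each age in days for each complex, in CSN and in control cells. Complex II lies above 0 at every age in CSN, complex IV has medians of 0.27, 0.35, -0.13 and 0.38, and the 60-day control cells, with 2 wild-type libraries, run from -1.85 to 1.65.

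In control cells, 0 of 46 members passed between Sod1G86R and wild type with limma, edgeR or DESeq2. Over all genes, limma called 0.0716% of 20944 in either direction. An unadjusted limma p under 0.05 was reached by 4 of the 46 members and by 11.7% of all genes, so the members did not exceed that share. Uqcrh had a log2 fold change of 0.36 ± 0.18, Cox7a2 of 0.40 ± 0.19 and Cox6c of 0.39 ± 0.18. Sdha stood lowest, at -0.51 ± 0.19 (limma, adjusted p = 0.306). It was the only member called at a single age, 60 days, with a log2 fold change of -1.85 ± 0.44 (limma, adjusted p = 0.0323), where 1.4% of genes were called in either direction. There, Sdha was 3155, 6133 and 8645 in Sod1G86R control cells, against 17967 and 22164 in wild-type control cells. The 2 wild-type libraries lay above the 3 others, and 22164 was the highest value of Sdha in the 57 libraries. These 2 wild-type libraries also had the highest glial marker levels of all, 14.4 each as a mean log2 value. At this age the markers stood lower in Sod1G86R control cells, with median log2 fold changes of -2.13 for astrocytes (2 of 8 passed), -2.65 for oligodendrocyte precursors (1 of 5), -1.70 for microglia (1 of 9) and -1.25 for oligodendrocytes (1 of 8). Their part in the Sdha difference was not tested.

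The genotype difference was larger in CSN than in control cells for 9 of 46 members, and smaller for 0, by the test of the difference itself, with 3.84% of 22032 genes called larger and 2.42% smaller. The differences of the log2 fold changes were 1.30 ± 0.29 for Uqcrc1, 1.23 ± 0.22 for Sdha, 1.02 ± 0.24 for Atp5b, 0.96 ± 0.23 for Cyc1, 0.87 for Uqcrc2, 0.86 for Atp5c1, 0.85 for Sdhd, 0.76 for Uqcrfs1 and 0.72 for Atp5a1 (limma, adjusted p 0.0041 to 0.0434). Complex IV had 0 of 16, with 0 members at an unadjusted limma p under 0.05, against 26.3% of all genes. Its smallest p was that of Cox7a2l, 0.49 ± 0.26. The median over all members was 0.02, against -0.03 over all genes. Depth differed between genotypes in opposite directions in CSN and control cells, and its part in this test was not tested. The count of 9 did not hold in every fit. It was 0 with the mitochondrial share or the number of detected genes as covariate, where 0 and 1 of all 22032 genes were called. It was 0 without the 60-day libraries, where 0 of 21358 genes were called. With quantile normalisation it was 3 higher and 1 lower, with 392 of 22032 genes called. Leaving out a single library brought it to 4 or 5 in 4 cases: 4 without replicate 13 of 105-day Sod1G86R CSN, replicate 6 of 30-day Sod1G86R CSN or replicate 1 of 60-day wild-type control cells, and 5 without replicate 3 of 60-day Sod1G86R control cells.

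CSN and control cells differed in members of every complex. In wild-type mice, 9 of 46 members were higher and 13 lower in CSN than in control cells, against 26.8% and 29.5% of 22032 genes, so the members' shares were not above those over all genes. Cox7a1, the isoform of the 7a subunit known from heart and skeletal muscle (chromosome 7, 30184144 to 30186078), had the highest fold change, 3.24 ± 0.20 on the log2 scale (limma, adjusted p = 3.18e-19). It was 332.8 to 1079.9 with a median of 686.5 in wild-type CSN, against 6.49 to 244.5 with a median of 29.9 in wild-type control cells, and the groups did not overlap. In Sod1G86R mice Cox7a1 was 360.6 to 1113.2 in CSN and 14.3 to 87.9 in control cells, again without overlap. Per kilobase of transcript it remained a minor form beside Cox7a2, at a mean of 1782 ± 607 for Cox7a1 against 15750 ± 6671 for Cox7a2 (SD, n = 16 wild-type CSN libraries). Cox7a2 itself, the form found in most tissues, had a log2 fold change of 0.05 ± 0.19 between CSN and control cells.

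The other tissue-specific isoforms were close to 0 in CSN. Cox4i2, Cox6a2, Cox6b2 and Cox7b2 entered this comparison only through control cells, where they are higher, so their calls as lower in CSN, 4 of the 13 in wild-type mice and 4 of the 5 in Sod1G86R mice, were built into the filter and their levels are given as a description. Cox4i2, the isoform induced by low oxygen, was 0 to 39.4 with a median of 4.06 in wild-type CSN, against 1.98 to 301.3 with a median of 88.5 in wild-type control cells. Cox6b2, known from testis, had medians of 2.21 in CSN and 49.8 in control cells, Cox6a2, known from muscle, 13.2 and 58.5, and Cox7b2, known from testis, 18.3 and 37.4. The ranges of CSN and control cells overlapped for all 4. With the glial marker level in the fit, the log2 fold change of Cox6a2 turned to 0.22. The common forms Cox4i1, Cox6a1, Cox6b1 and Cox8a did not pass in wild-type mice, with log2 fold changes of 0.32, -0.32, 0.31 and -0.23, while Cox5b, Cox7b and Cox6c were higher in CSN by 0.77, 0.64 and 0.56. The supercomplex factor gene Cox7a2l was lower in wild-type CSN, at -0.88 ± 0.18 (limma, adjusted p = 3.88e-05). Endothelial and mural markers, of which mural cells are known to express Cox4i2, summed to 401 to 2038 in wild-type CSN and 3518 to 22923 in wild-type control cells, and their part in the Cox4i2 difference was not tested.

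**Figure D5:**
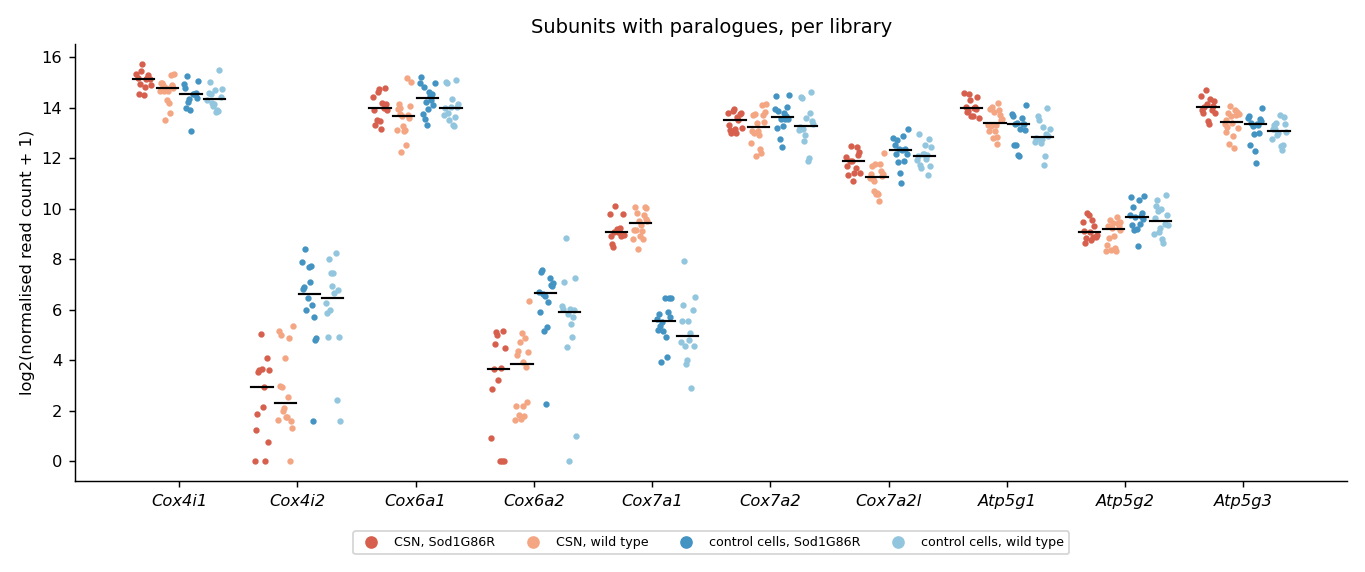
Levels of 10 members with paralogues in each of the 57 libraries as log2(normalised read count + 1), with CSN of Sod1G86R and wild-type mice left of control cells of the same genotypes; points are libraries and bars are medians. Cox7a1 separates CSN from control cells without overlap within each genotype, and Cox4i2 and Cox6a2 have lower medians in CSN.

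Complex II was lower in wild-type CSN than in wild-type control cells for 4 of 4 members. Sdhd was 2872 to 8490 with a median of 5092 in CSN and 4324 to 15378 with a median of 12530 in control cells, a log2 fold change of -1.22 ± 0.18 (limma, adjusted p = 1.21e-07). Sdhb, Sdhc and Sdha had log2 fold changes of -0.65, -0.54 and -0.50. With the mitochondrial share in the fit, which averaged 9.41% in CSN of wild-type mice, against 1.44% in their control cells, Sdhd turned to 0.67 and Sdhb to 0.31. The same covariate turned Uqcrfs1 to 0.70, Atp5c1 to 0.56 and Atp5g2 to 0.26, and it brought Cox7a2l to 0.083 and Atp5s to 0.017, all of which are called lower in the fit without it. In Sod1G86R mice 0 of the 4 were lower in CSN and Sdha was higher, by 0.73 ± 0.16 (limma, adjusted p = 0.000178). Of complex III, Uqcrfs1 alone passed in wild type, at -0.53, and in Sod1G86R mice Uqcrc1, Cyc1 and Uqcrc2 were higher in CSN, by 1.10, 0.92 and 0.71. Of complex V, 5 of 17 were higher in wild-type CSN, Atp5k (0.73), Atp5g1 (0.65), Atp5j2 (0.55), Atp5h (0.47) and Atp5g3 (0.41). Atp5s (-0.64), Atp5c1 (-0.48) and Atp5g2 (-0.40) were lower. Over all genes, 26.8% were called higher and 29.5% lower in wild type. For complex V the share called higher was thus near that of all genes, and the share called lower was below it. In Sod1G86R mice 9 of the 17 were higher, with Atp5a1 at 0.87 ± 0.14 and Atp5g1 at 0.96 ± 0.18, and Atp5g2 was lower. Over all genes, 24.9% were called higher and 30.6% lower there.

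In all, 18 members were higher and 5 lower in CSN in Sod1G86R mice, against 24.9% and 30.6% of all genes. The 2 cell-type comparisons are made on different libraries, and their difference is the test of the genotype difference between cell types given above. The split moved with the scaling. In wild-type mice it was 17 higher and 12 lower with quantile normalisation and 26 higher and 5 lower with the length trend removed. In Sod1G86R mice it was 33 higher and 3 lower with that trend removed, a step that moved the median of all genes in wild type to 0.10. Over all genes, these fits called 13011 of 22032, 9969 of 16381 and 9740 of 16381 in either direction. With the glial marker level in the fit 5 members were called in wild-type mice and 10 in Sod1G86R mice. Over all genes, that fit called 3380 and 4250 of 22032. CSN and control cells differ in glial content by their nature, so cell identity and glial content cannot be told apart here.

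Levels per kilobase of transcript ordered the members of each complex in wild-type CSN as follows. Complex II ran from Sdhc, at 1459 ± 425, to Sdhb, at 10610 ± 2695 (SD, n = 16), complex III from Cyc1, at 5090 ± 1095, to Uqcr11, at 31240 ± 11720, complex IV from Cox6b2, at 12.3, to Cox4i1, at 35610 ± 10690, and complex V from Atp5g2, at 745 ± 231, to Atp5j, at 21930 ± 7785. The medians were 3551, 11170, 13010 and 8613 for complexes II, III, IV and V. The nuclear members together took 1.59 ± 0.30% of all values in Sod1G86R CSN (SD, n = 13) and 1.28 ± 0.31% in wild-type CSN (SD, n = 16). Summed complex II levels were 26381 to 71730 in CSN of Sod1G86R mice and 17920 to 40817 in wild-type CSN. Within a library, the mean log2 level of complex III exceeded that of complex IV by 2.38 ± 0.17 in CSN of Sod1G86R mice and 2.06 ± 0.21 in wild-type CSN, and that of complex V exceeded complex IV by 1.77 ± 0.12 and 1.52 ± 0.15 (SD). The corresponding values in control cells were 2.02 and 2.09 for complex III and 1.42 and 1.49 for complex V, in Sod1G86R and wild type. These means are not divided by transcript length. That of complex IV includes Cox4i2, Cox6a2, Cox6b2 and Cox7b2, near 0 in CSN, which lowers it. The offsets therefore do not rank the complexes by level. Per kilobase, the median of complex IV in wild-type CSN was above that of complex III (13010 against 11170).

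Partner genes were counted beside the members, to be read against the 12.8% of all genes called higher and 6.31% called lower. Of the 6 subunits of complexes III to V that mitochondrial DNA encodes, 5 fell in CSN of Sod1G86R mice and 0 rose, at a median log2 fold change of -0.58. Among them were mt-Atp6 (-0.62 ± 0.16) of complex V and mt-Co2 (-0.83 ± 0.22) and mt-Co1 (-0.54 ± 0.15), catalytic subunits of complex IV, with limma and adjusted p 0.00817, 0.00959 and 0.0121. The member of this list that did not pass, mt-Co3, stood at -0.89 ± 0.74. The called nuclear and mitochondrially encoded subunits of these complexes moved in opposite directions in the same libraries. Of 36 nuclear subunits of complex I, 13 rose and 0 fell, among them Ndufv1 (0.99), the subunit that oxidises NADH, Ndufa9 (1.03) and Ndufa10 (0.70). Of the carriers of electrons, phosphate and ADP 5 of 9 rose, such as the ADP/ATP carriers Slc25a4 (0.74) and Slc25a5 (0.93) and the phosphate carrier Slc25a3 (0.51). Of the assembly factors of complex IV 8 of 24 rose, such as Cox11 (0.74) and Surf1 (0.49). For complexes II, III and V the lists are short, with 1 of 4 (Sdhaf2, 0.46), 1 of 6 (Uqcc1, 0.44) and 2 of 7 (Tmem70, 0.63, and Atpaf2, 0.45) called higher, and 1 of 6 is near the share over all genes. The 13 regulators of respiratory gene transcription had log2 fold changes from -0.27 to 0.38 and did not pass with limma.

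Over the means of the 16 groups, the genes most like the mean of the complex II members were Prps1 (Spearman's rho 0.96), Rab28, Chmp3 and Morf4l2 (0.95 each) and Ndfip2 (0.94). For complex III they were Prdx2 (0.96), Iscu, Rheb (0.95 each), Coa3 and Ndufa11 (0.94 each), and for complex V Prdx2 (0.97), Coa3 (0.96), Hint1, Nme1 (0.94 each) and Dnajc15 (0.94). For complex IV they were Ndufc2 and Ndufs6 (0.96 each), Timm8b (0.95), Nedd8 and Rpl3 (0.94 each). These are the highest of many genes over 16 points that share libraries, and are given as a description.

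Some members share sequence with other genes. At least 20% of the 50-base stretches of 10 members also occur in other annotated genes, 4 of them members that rose: Uqcrc2, Cox5a, Atp5f1 and Atp5o. Exons of 10 members overlap a gene on the opposite strand, as for Cox4i1 and Atp5a1, and libraries of this kit carry no strand information, so reads from these pairs cannot be told apart and these values are uncertain. For Sdha, Sdhb, Sdhd, Uqcrc1, Cyc1 and Uqcrfs1, no such stretch was shared.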

How the data were processed

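RNA of corticospinal neurons and control cells was extracted with Trizol and amplified with SMART-Seq v4, per the labels' protocols. Libraries were made with Nextera XT and sequenced as paired 2x50-base reads on a HiSeq instrument, and reads were mapped to GRCm38 with STAR 2.7.0 and counted per gene with Ensembl 87, per the series' design text. The submitters' processing notes also name edgeR, with no role. The deposited table holds a normalised signal, the authors' normalised read counts of 45337 genes in 57 libraries. How they were normalised is not stated. Each column is a whole-number count times a constant: 100% of values came out whole within 0.001, which gave the recovered reads.

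Values were tested with limma 3.58.1 in R 4.3.3 (trended, robust) as log2(value + 34.6), in genes at 34.6 or more in at least 3 libraries of the fit, which equals 1 ppm of a median library's total. Fold changes on this scale understate the change of low genes. P-values were Benjamini-Hochberg adjusted over all genes tested, with 0.05 as threshold. CSN, control cells and all 57 libraries were fitted apart, each group of cell type, genotype and age having its own mean. The recovered reads were tested with edgeR 4.0.16 and DESeq2 1.42.0 as alternatives. The other alternatives were other scalings, no filter, covariates for mitochondrial share, glial markers, detected genes and library number, a replicate block, and leaving out each library. The length trend removed and the 60-day or 90-day libraries left out were chosen after seeing the data. The limma fit of CSN was tried on simulated counts, for the genotype contrast over the mean of ages alone. Their noise was independent between genes and libraries, with a fixed dispersion. The other fits were not simulated. Coding lengths came from the annotation, and promoters from RefSeq (GRCm38.p6).

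Members and gene lists were chosen with earlier results of these data known. Named were, per complex, the 2 members with the smallest p that passed (otherwise the 1 with the smallest p), members with a paralogue, members that passed against their complex, Sod1, and up to 3 genes of each other list. Other members named were chosen after their values were seen. Libraries of CSN and control cells with the same title number and age were read as 1 animal. For these 25 pairs, the deviations from the group means correlated at r = -0.318 to 0.282, with a median of 0.0385.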

Additional observations from a re-analysis of the deposited data

Results flagged for a closer look

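In 165 groups of 4 libraries or more, 13 values stood apart from the rest of their group by Dixon's criterion, which chance meets in about 1 of 20 groups. Among members in CSN, Cox7a1 was 1113.19 in replicate 1 of 60-day Sod1G86R mice, against 535.68 to 590.28 in the others. Sdha was 10352.4 in replicate 4 of 30-day wild-type mice, against 7855.76 to 8179.14. Cox7a2l was 3453.13 in replicate 7 of 60-day wild-type mice, against 1260.18 to 1562.81, and 4774.71 in replicate 9 of 90-day wild-type mice, against 2497.19 to 2880.61. Cox4i2 was 28.25 and 39.37 in these same libraries, against 2.38 to 4.88 and 0 to 2.02 in the rest of their groups. Atp5b was lowest, at 22274.73, in replicate 7 of 90-day wild-type mice, against 31822.39 to 32262.86, and at 24264.8 in replicate 12 of 105-day wild-type mice, against 31352.17 to 32279.68. The mitochondrial share was 8.92% in replicate 8 of 90-day Sod1G86R CSN, against 3.52 to 4.21%. Summed complex V was 214200.9 in replicate 13 of 105-day wild-type CSN, against 138834.1 to 151030, and 189896.4 in replicate 5 of 30-day wild-type control cells, against 136082.5 to 145169.7. Summed complex IV was 267908.3 in replicate 6 of 90-day wild-type control cells, against 130819.6 to 134569.9. In control cells of 90-day Sod1G86R mice, Cyc1 was 11552.35 in replicate 8, against 8514.29 to 8541.15.

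The genotype difference differed between cell types for 9 members by its own test, as log2 fold change in CSN minus that in control cells. It was 1.30 for Uqcrc1, 1.23 for Sdha, 1.02 for Atp5b, 0.96 for Cyc1, 0.87 for Uqcrc2, 0.86 for Atp5c1, 0.85 for Sdhd, 0.76 for Uqcrfs1 and 0.72 for Atp5a1.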

How the results depend on the processing

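The alternatives gave 1615 values of named single members and of the median of each complex. Of these, 1376 were labelled the same, 196 no longer passed, 12 newly passed and 21 turned round. The other 10 were complex medians that moved by at least the SD between libraries within groups. Leaving out a library entered for a single member only where it changed the label, or else by its highest adjusted p. These counts are therefore not shares of all alternatives. In Sod1G86R against wild-type CSN, the count of 20 became 0 with the mitochondrial share as covariate and lay between 16 and 22 in the other alternatives. Leaving out each library gave 17 to 21. The count of 9 for the difference between cell types became 0 with the mitochondrial share, with detected genes and without the 60-day libraries. In these fits 0 of 22032, 1 of 22032 and 0 of 21358 genes were called. The count became 4 with quantile normalisation and 5 without the 90-day libraries, where 392 of 22032 and 779 of 21529 genes were called. It ran from 4 to 12 without each library in turn. CSN against control cells gave 22 in wild-type mice, 5 with the glial covariate and 20 to 24 without each library. In Sod1G86R mice it gave 23, against 10 with the glial covariate, 12 with detected genes, 36 with the length trend removed and 20 to 23 without each library. Over all genes, the fits with the glial covariate, detected genes and the length trend removed called 4250 of 22032, 8406 of 22032 and 9740 of 16381. The genotype comparison in control cells, 105 against 30 days and the genotype difference by age gave 0 to 0 without each library.

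In CSN against control cells of wild-type mice, the mitochondrial share as covariate turned the log2 fold change to 0.67 for Sdhd, 0.31 for Sdhb, 0.70 for Uqcrfs1, 0.083 for Cox7a2l, 0.017 for Atp5s, 0.56 for Atp5c1, 0.26 for Atp5g2, 0.23 for Cox6a1 and 0.28 for Cox8a. The glial covariate turned it to 0.22 for Cox6a2, 0.18 for Atp5g2, 0.54 for Cox6a1 and 0.67 for Cox8a, and in Sod1G86R mice to 0.15 for Atp5g2. With the length trend removed it was 0.016 for Atp5c1 and 0.049 for Cox8a, and Cox7a2 stood at -0.24 without the 60-day libraries and at -0.0486 to -0.0044 without single libraries. The genotype difference by age of Sdhd was 0.031 without replicate 6 of 30-day Sod1G86R CSN. The cause was not tested. With a replicate block the counts were 20, 0, 9, 22, 23, 0 and 0 and changed no call count. In the fit of all 57 libraries, which gave 9, 22 and 23, the block was the animal as read from the titles. The main fit held no term for it. In the fits of CSN and of control cells the block was age and title number. Libraries of different genotype share only a number, and the 16 such pairs correlated at r = -0.158 to 0.483. Depth limits the precision of Cox4i2, Cox6a2, Cox6b2 and Cox7b2 in CSN, which lie near 0.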
